A study of Mus musculus with 5 samples.

Results

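The cathepsins are proteases of the lysosome and endosome, and 10 of their genes (Ctsa, Ctsb, Ctsc, Ctsd, Ctsf, Ctsh, Ctsk, Ctsl, Ctss and Ctsz) are described here among 24982 rows of the authors' deposited Cuffdiff gene table. Members were found by gene symbol, each in exactly 1 row, and all 10 were among the 12311 rows that Cuffdiff tested. The RNA came from macrophages taken from mouse tumors of the MCA fibrosarcoma line 9609. In the MEK1-hi group (3 libraries), cell line and genotype are labelled MEK1-hi and the treatment is MEK1-hi exosomes, small vesicles shed by cells. In the MEK1-low group (2 libraries), cell line and genotype are labelled MEK1-low and the exosomes are labelled MEK1-low with the note GFP. Both groups rest on the 1 tumor line, and the sources used here give neither the strain, age and number of mice nor the way the macrophages were isolated or the exosomes given. MEK1 is a kinase of the RAS-RAF-MEK-ERK cascade. All differences are given as MEK1-hi relative to MEK1-low, and where FPKM values come in pairs MEK1-low stands first.

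Cathepsins are made as inactive precursors, sorted to acidic vesicles and activated there by removal of a propeptide. Most are cysteine proteases of the papain type, while cathepsin D is an aspartic protease and cathepsin A a serine carboxypeptidase. In macrophages they break down engulfed protein, trim the invariant chain that blocks MHC class II molecules, and, when secreted, cut extracellular matrix. Cystatins and some serpins inhibit them.

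The table gives 1 pooled FPKM (sequenced fragments, scaled by library size and transcript length) for each group, so a value per library, an SD and the groups' overlap cannot be shown. FPKM is a level per transcript length, so it can be set side by side between genes. The error is carried by the authors' Cuffdiff test statistic and its q value (the p value adjusted over all tested rows), and a gene is said to have changed only at a q of 0.05 or less. Whether the libraries came from separate animals is not stated, so p and q measure the spread between these samples only, which may be technical. Of all tested rows, 163 were called (1.32%), 123 of them higher (0.999%) and 40 lower (0.325%). Depth per library cannot be read from the table. Macrophage transcripts were abundant in both groups: all 12 listed markers were found, with Lyz2, the lysozyme gene, at 4999 against 6372 FPKM in the authors' deposited table. None of the 12 was called by Cuffdiff (1 was higher and 1 was lower at an unadjusted p under 0.05), and their summed FPKM was 17012 against 19818. In a bulk sample, fewer cells of a type and less RNA per cell cannot be told apart.

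Of the 10 cathepsins, Cuffdiff called 1 lower, Ctsk, and 0 higher. At an unadjusted p under 0.05 the counts were the same, against 6.08% of all tested rows in either direction. Ctsk fell 2.41-fold, while the other 9 lay within 1.5-fold of equality, as did 91.7% of the 11110 genes used for medians (tested, named by a single symbol, not at 0 in either group, and reaching an FPKM of 1 in at least 1 of them). Of the 10 log2 fold changes 5 were above 0 and 5 below, with a median of 0.02 beside -0.02 over the 11110 genes. Rescaling both groups to equal FPKM sums lowers every log2 fold change by 0.13, which puts the median at -0.11 and Ctsa at -0.09.

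**Figure D1:**
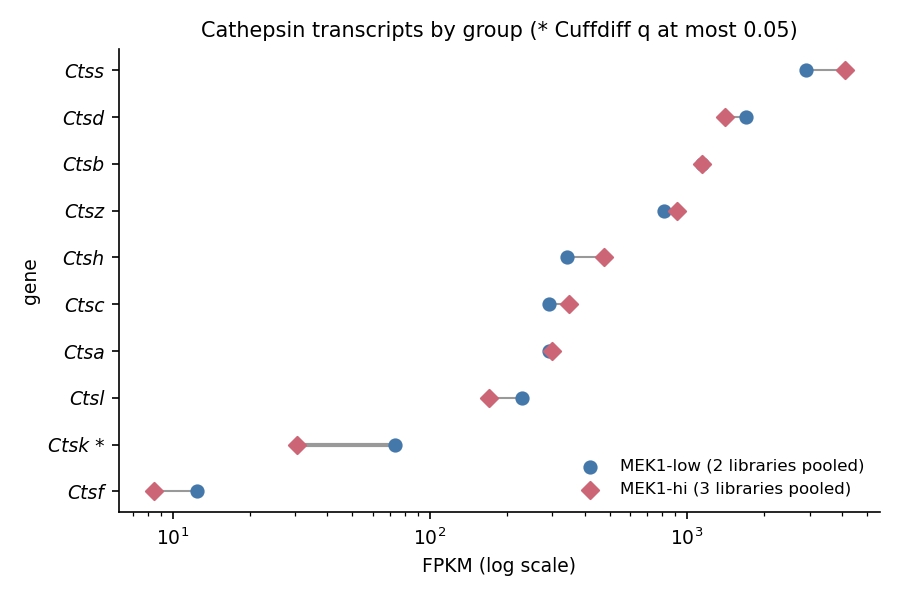
FPKM of each cathepsin on a log axis, with circles for MEK1-low (2 libraries pooled) and diamonds for MEK1-hi (3 libraries pooled). The order of the genes is the same in both groups, and the widest gap is that of Ctsk, from 73.5 to 30.5 FPKM.

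Ctsk and Ctss are set side by side because they are next to each other on chromosome 3 and differed widely in level. They also had the lowest and the highest log2 fold change of the family. Of these neighbours only Ctsk was called, and the value of Ctss (0.51) was close to that of Ctsh (0.48). In mm10 the authors' locus for Ctsk is chr3:95499210-95509387 and that for Ctss chr3:95526786-95556405, both on the plus strand, with 17398 bases between them. In GENCODE release M21 each has 8 exons, with 987 coding bases for Ctsk and 1023 for Ctss. The 250 bases before each RefSeq transcription start (GRCm38.p6, plus strand, chr3:95498960-95499209 and chr3:95526536-95526785) are shown so that the neighbours can be compared, with matches to any of 6 searched motifs in capitals.
Ctsk: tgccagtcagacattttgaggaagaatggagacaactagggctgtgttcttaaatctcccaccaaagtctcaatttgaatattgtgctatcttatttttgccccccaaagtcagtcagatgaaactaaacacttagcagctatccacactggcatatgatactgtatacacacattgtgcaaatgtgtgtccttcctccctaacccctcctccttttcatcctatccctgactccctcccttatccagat
Ctss: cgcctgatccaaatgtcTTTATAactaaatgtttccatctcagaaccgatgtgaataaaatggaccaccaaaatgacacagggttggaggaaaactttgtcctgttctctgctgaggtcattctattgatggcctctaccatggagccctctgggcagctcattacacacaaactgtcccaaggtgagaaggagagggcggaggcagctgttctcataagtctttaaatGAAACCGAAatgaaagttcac
The Ctss sequence holds TTCNNTTTC, part of the interferon-stimulated response element, on the minus strand at bases -21 to -13 from the start. It also holds TATAAA on the minus strand, at -233 to -228, and these matches do not overlap. The Ctsk sequence holds none of the 6. Of 27025 promoters of the same length, 7.16% hold TTCNNTTTC and 13.0% hold TATAAA on either strand. The other motifs were CACGTG, bound by TFEB, a regulator of lysosomal genes (6.05% of promoters), the interferon-gamma activated site TTCNNNGAA (7.18%), the AP-1 site TGANTCA (6.87%) and GAGGAAGT, bound by the myeloid factor PU.1 (2.44%). Of the 8 members with a promoter entry, CACGTG was found in Ctsd, Ctsl and Ctsf and in a later entry of Ctsa (at -12 to -7), TTCNNNGAA and GAGGAAGT in Ctsc, and TGANTCA in 0. A match is a description of letters, not of binding. GC content was 43.2% for Ctsk and 44.8% for Ctss, beside a median of 52% over all promoters.

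Ctsk encodes cathepsin K, the collagenase with which osteoclasts dissolve bone matrix, and fibroblasts and some macrophages make it too. It measured 73.5 against 30.5 FPKM in the authors' deposited table, so MEK1-low is the higher group. The log2 fold change was -1.27, with a statistic of -3.23, p = 5e-05 and q = 0.00676 in the authors' deposited table. Only 0.414% of the 11110 genes had a lower log2 fold change. Among the 40 rows called lower, Ctsk was number 6 by FPKM lost and number 22 by fold change. Among the 2293 tested rows within 2-fold of its mean FPKM, 45 were called (1.96%), 7 of them lower. The value 5e-05 is the smallest p in the authors' deposited table and is shared by 91 rows. The call was lost under other settings that are not particular to Ctsk. With the Benjamini-Yekutieli adjustment of the Cuffdiff p, Ctsk had an adjusted p of 0.0676. No row can be lower, since its p is the smallest, and 0 rows of all genes passed. With p taken from the deposited statistic and a normal distribution, Ctsk had an adjusted p of 0.304, and 15 rows of all genes passed. The Cuffdiff p does not follow from the statistic in that way (Ctsf had -1.20 with a Cuffdiff p of 0.0575). That setting is thus a different test, not a stricter reading of the same p. By distance over the log2 FPKM of both groups, the 3 genes closest to Ctsk were Snora31 (81.0 and 34.1 FPKM in the authors' deposited table), Col5a2 (61.0 and 34.7) and Nt5dc2 (61.1 and 35.7), none of them called, and 2 pooled values per gene are a thin base for such likeness.

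Of the other cysteine cathepsins that cut within proteins, Ctss was by far the most abundant. Cathepsin S works at neutral as well as acidic pH and carries out the last cut of the invariant chain in antigen-presenting cells. Its transcript measured 2899 against 4125 FPKM in the authors' deposited table, number 10 and number 9 among the 11110 genes. The log2 fold change of 0.51 did not pass (statistic 0.84, q = 0.9998). Of the 16 tested rows within 2-fold of the mean FPKM of Ctss, 0 were called. The smallest difference called at any level in the table was 0.82 on the log2 scale, so a value of 0.51 that did not pass does not show equal levels.

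Ctsl, which encodes another potent endopeptidase, measured 229 against 170.3 FPKM in the authors' deposited table (log2 fold change -0.43, p = 0.106, q = 0.9998). Ctsb, whose product also trims dipeptides from protein ends, measured 1149.6 against 1142 FPKM there (log2 fold change -0.01, q = 0.9998), the smallest difference of the family. Ctsf, whose product can process the invariant chain in macrophages, was the least abundant member. It measured 12.5 against 8.44 FPKM in the authors' deposited table (log2 fold change -0.56, p = 0.0575, q = 0.864). Ctsl, Ctsb and Ctsf thus lay below 0 with Ctsk, and Ctss was the exception among these 5 endopeptidases, but only Ctsk passed the test. The scaling matters for Ctsb, which is at 0.01 once the median of the 11110 genes is set to 0.

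The 3 cysteine exopeptidases, which trim proteins from their ends, all lay above 0 and none was called by Cuffdiff (0 at an unadjusted p under 0.05). Ctsh encodes an aminopeptidase and measured 341 against 477 FPKM in the authors' deposited table (log2 fold change 0.48, p = 0.0681, q = 0.903). Ctsc encodes dipeptidyl peptidase I and measured 291 against 349 FPKM there (log2 fold change 0.26, q = 0.9998). Ctsz encodes a carboxypeptidase and measured 816 against 919 FPKM (log2 fold change 0.17, q = 0.9998) in the authors' deposited table. Cathepsin C activates serine proteases of cytotoxic cell, neutrophil and mast cell granules. Of 9 such protease genes, 3 were tested and 0 were called by Cuffdiff, with 1 higher and 1 lower by the unadjusted p at 0.05. Their transcripts were scarce, with Gzmb at 1.96 and 4.66 FPKM, Gzmc at 5.69 and 2.46, and Elane and Ctsg listed at 0 in both groups of the authors' deposited table.

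Of the members that are not cysteine proteases, neither passed the test. Ctsd, the aspartic protease, measured 1695 against 1402 FPKM in the authors' deposited table (log2 fold change -0.27, q = 0.9998). Ctsa, the serine carboxypeptidase that also stabilises beta-galactosidase and neuraminidase in a lysosomal complex, measured 289.6 against 298 FPKM (log2 fold change 0.04, q = 0.9998) in the authors' deposited table. For the genes of its partners, Glb1, in a row shared with Tmppe, measured 36.2 against 36.6 FPKM, and Neu1 had 28.0 and 29.3 (q = 0.9998 for each).

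**Figure D2:**
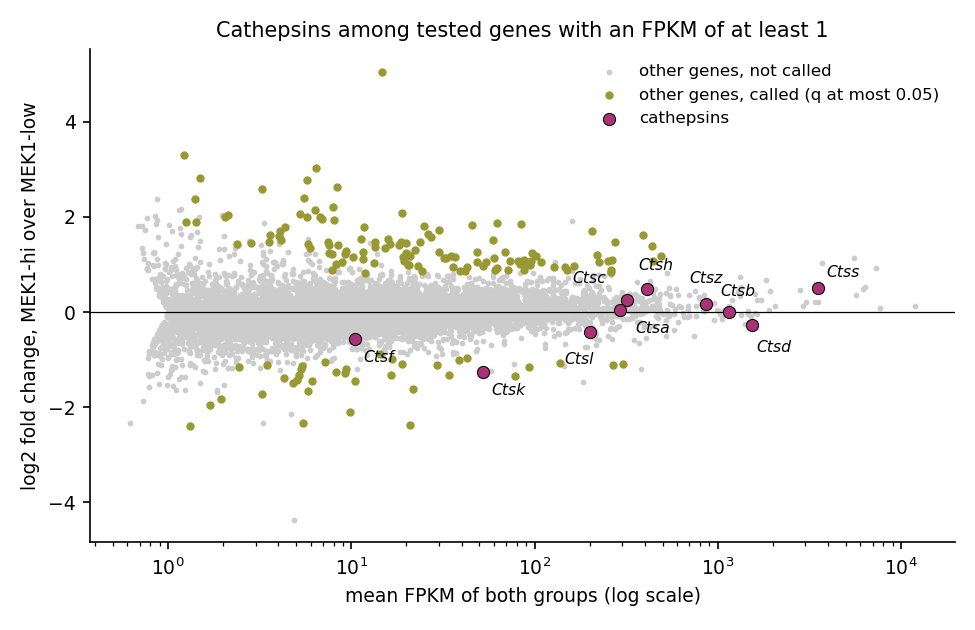
Log2 fold change (MEK1-hi over MEK1-low) against the mean FPKM of both groups on a log axis, with grey for genes not called, olive for called genes and purple for the cathepsins. Ctsk lies at -1.27 among called genes. Within 2-fold of the mean FPKM of Ctsb, Ctsd or Ctss, 0 tested rows were called, and 3 of 100 were for Ctsz.

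Calls among genes of like abundance were counted for each member. Among tested rows within 2-fold of the mean FPKM, 0 of 65 were called for Ctsb, 0 of 45 for Ctsd and 3 of 100 for Ctsz. For Ctsa, Ctsc, Ctsh and Ctsl, between 2.86% and 4.98% of such rows were called, and the smallest difference called among them was 0.84 on the log2 scale (Psmb8). For Ctsf 64 of 4394 were called, the smallest difference being 0.82. None of the 9 uncalled members differed by as much as 0.82, the smallest difference called in the whole table. These shares count calls and do not measure how small a difference the test could find.

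Summed over the 10 genes, cathepsin FPKM came to 7796 against 8921, 1.75% and 1.82% of the FPKM of all rows with an estimate. The ratio of these sums was 1.14 (1.04 once both groups are rescaled to equal sums), and no test was made of it. The ratio depended on Ctss, since without that gene the sums were 4897 and 4796, a ratio of 0.979. Ctss made up 37.2% of the cathepsin sum in MEK1-low, against 46.2% in MEK1-hi. The share of Ctsd came to 21.7% and 15.7%, that of Ctsb 14.7% and 12.8%, and that of Ctsz 10.5% and 10.3%. Ctsk made up 0.943% and 0.342%, so the 1 gene called is a minor part of the pool. The order of the 10 genes by FPKM was the same in both groups, but Ctsc and Ctsa stood at nearly the same level in MEK1-low, and without values per library it is unknown which neighbours differ beyond their spread. Between the chromosome 3 neighbours, Ctss exceeded Ctsk 39.4-fold in MEK1-low and 135-fold in MEK1-hi.

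**Figure D3:**
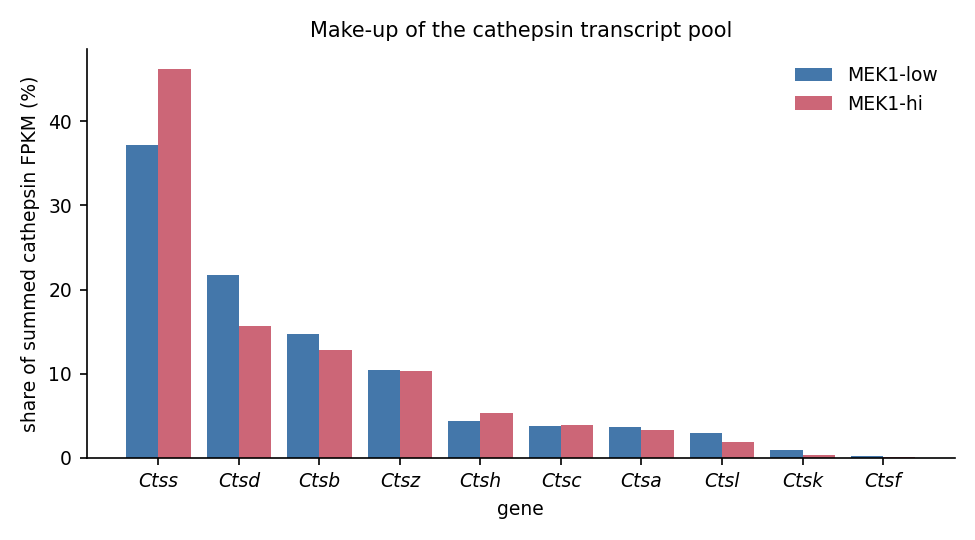
Share of the summed FPKM of the 10 cathepsins (percent, from 0) held by each gene, with blue bars for MEK1-low and red bars for MEK1-hi. Ctss holds 37.2% and 46.2% of the sum and Ctsd 21.7% and 15.7%, with no test of these pooled values.

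No other gene around Ctsk was called. Of the 35 other tested rows within 500 kb, 0 passed in Cuffdiff, with 1 (BC028528, higher) at an unadjusted p under 0.05. Their median log2 fold change was -0.06, with 13 above 0 and 22 below. Arnt, the neighbour on the other side, encodes a partner of hypoxia-inducible factors and measured 37.1 against 34.3 FPKM in the authors' deposited table (q = 0.9998).

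**Figure D4:**
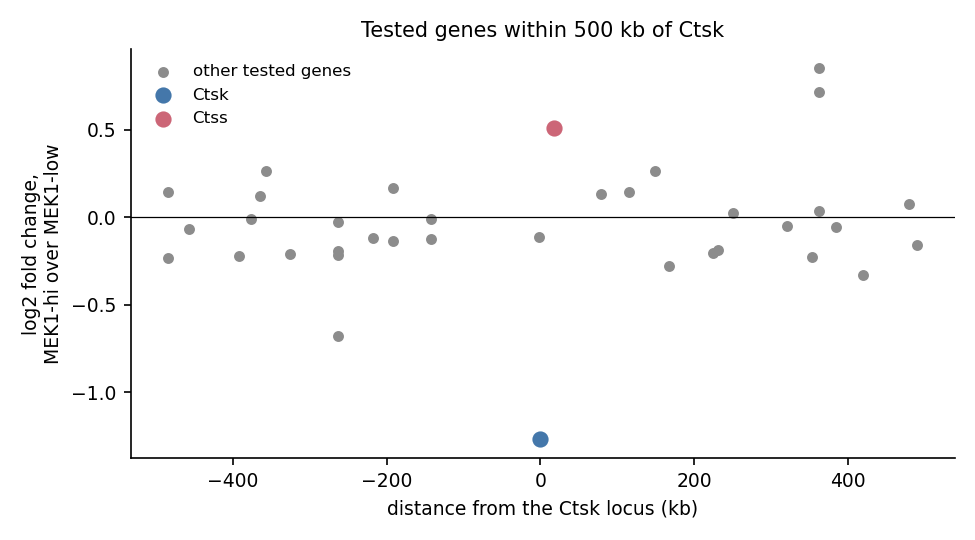
Log2 fold change (MEK1-hi over MEK1-low) of the tested genes within 500 kb of the Ctsk locus, against their distance from it in kb. Ctsk at -1.27 is the lowest point and Ctss, 17.4 kb away, is at 0.51.

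Sequence shared with other genes, which could blur read assignment, was counted for each member. Of the distinct stretches of 100 bases (the read length) in GENCODE transcripts, 0 of 1413 for Ctsk and 0 of 1358 for Ctss occur in a transcript of another gene on either strand. The same count was 0 for Ctsc, Ctsf, Ctsh and Ctsz, and no member shared such a stretch with another member. Ctsd shared 30.2% with the transcript Gm49369 on its own strand, and Ctsl 23.5% with the antisense gene Gm47123 and with Gm49230. Ctsb shared 11.4% with Fdft1 and Ctsa 7.96% with Pltp and Neurl2, all antisense. The values of these 4 genes are thus less certain. The strand setting of the counting, which is not given in the sources used here, bears only on the antisense stretches. Those that Ctsd shares with Gm49369 and Ctsl with Gm49230 are on the same strand. In the authors' deposited table, the overlapping genes Fdft1 (8.92 and 9.24 FPKM) and Neurl2 (6.24 and 6.06) were scarce beside the cathepsins, while Pltp (363 and 341) was as abundant as Ctsa.

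Inhibitors of cathepsins had 1 of 9 tested genes called higher by Cuffdiff and 0 lower (median log2 fold change 0.13 over 7 genes, or -0.0040 after rescaling to equal FPKM sums). The called row is a joint one of Serpina3f and Serpina3g, of which Serpina3g encodes a serpin that blocks lysosomal cysteine cathepsins. The joint row rose 3.20-fold, from 44.8 FPKM to 143 in the authors' deposited table (statistic 4.35, q = 0.00676), and how the reads divide between these genes is unknown. Cst3, which encodes the secreted inhibitor cystatin C, measured 1628 against 2222 FPKM (log2 fold change 0.45, q = 0.9998) in the authors' deposited table. Cstb, whose product acts in the cytosol, measured 494 against 453 FPKM there (q = 0.9998).

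Among 6 other lysosomal proteases, Cuffdiff called 1 higher and 0 lower. Napsa, an aspartic protease gene related to Ctsd, rose 2.21-fold, from 37.6 FPKM to 83.0 in the authors' deposited table (statistic 3.02, q = 0.00676). Lgmn, whose product legumain matures several cathepsins, measured 1479.9 against 1441 FPKM there (q = 0.9998). Of the further cathepsin genes, Ctso measured 15.2 against 17.2 FPKM, Ctse 2.26 and 2.18 and Ctsw 1.90 and 2.19 in the authors' deposited table, none called. Ctsll3 measured 0 against 0.0131 FPKM, and the 9 others on that list, Ctsg and 8 genes of the placental cluster on chromosome 13, are listed at 0 in both groups.

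No gene on the lists of lysosomal hydrolases, of sorting and activators, or of TFEB and its relatives was called. The proton pump subunit gene Atp6v0d2, which was called lower, is given with the osteoclast genes below. Of 31 lysosomal hydrolase genes, 0 were called by Cuffdiff, with 0 higher and 1 lower by the unadjusted p at 0.05 (median log2 fold change 0.03). Npc2, whose product binds cholesterol in the lysosome, measured 319 against 404 FPKM in the authors' deposited table (q = 0.9998). Of 13 genes for sorting receptors, lysosomal membrane proteins and activators, 0 were called, with 0 higher and 1 lower by the unadjusted p at 0.05 (median 0.04). Psap, the precursor of the saposins, measured 2382 against 3279 FPKM in the authors' deposited table (q = 0.9998). Of the transcription factor genes Tfeb, Tfe3, Mitf and Tfec, which regulate lysosomal genes, 0 of 4 were called and 1, Tfec (8.79 and 5.51 FPKM there), was lower at an unadjusted p under 0.05. After rescaling to equal FPKM sums, the medians of the hydrolase and sorting lists are below 0, at -0.10 and -0.09.

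Genes that act with cathepsin S in class II presentation lay above 0. Of 10 tested, Cuffdiff called 3 higher and 0 lower, 9 were higher at an unadjusted p under 0.05, and the median log2 fold change was 1.02. Ciita, whose product switches on class II genes, rose 2.41-fold, from 6.79 FPKM to 16.4 in the authors' deposited table (statistic 3.28, q = 0.00676). H2-DMb1 and H2-Oa, which encode peptide editors and modulators of class II, rose 2.12-fold and 2.32-fold (q = 0.00676 and 0.0242). Cd74, which encodes the invariant chain itself, has no estimate: its row, joint with Mir5107, is marked as holding too much data and is listed at 0 in MEK1-hi. Whether Ctss differs from these genes was not tested.

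Of 14 tested genes known from osteoclasts, 2 were called lower and 0 higher by Cuffdiff, and 1 higher and 5 lower had an unadjusted p under 0.05 (median log2 fold change -0.41 over 12 genes, or -0.07 over all 14). Atp6v0d2, a proton pump subunit gene, fell from 7.05 FPKM to 2.51 in the authors' deposited table (statistic -2.72, q = 0.0202). Itgb3, which encodes integrin beta-3, fell from 4.75 FPKM to 2.18 there (statistic -2.41, q = 0.0163). Other defining osteoclast genes did not pass, with Acp5 at 143 and 85.1 FPKM (q = 0.0969), Nfatc1 at 29.6 and 28.5 (q = 0.9998) and Calcr at 0.0470 and 0.00900 (not tested) in the authors' deposited table. Matrix metalloproteinases and their inhibitors had 0 of 11 called, with 0 higher and 3 lower by the unadjusted p at 0.05 (median -0.39). Mmp14, the membrane-bound collagenase, measured 273 against 255 FPKM in the authors' deposited table (q = 0.9998).

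All listed fibroblast markers lay below 0, as Ctsk did. Of 13 tested, Cuffdiff called 4 lower and 0 higher, 9 were lower at an unadjusted p under 0.05, and the median log2 fold change was -0.89 over 12 genes, with a range over the 13 from -1.32 to -0.34. Their FPKM summed to 1819 against 1171, a ratio of 0.644, and none is at 0. Gene by gene the ratio ran from 0.399 (Acta2) to 0.788 (Postn), beside 0.415 for Ctsk. Acta2, a contractile actin gene, fell from 23.4 FPKM to 9.36 and Col6a3, a collagen gene, from 49.0 to 19.7 in the authors' deposited table (q = 0.00676 for each). Thy1, a surface protein gene, fell from 51.8 FPKM to 25.8 and Col5a1, another collagen gene, from 56.6 to 29.1 there (q = 0.0163 and 0.0491). The part of fibroblasts or tumor cells in the Ctsk difference was not tested. The macrophage markers, as given above, were not called. Among them Mrc1 had the lowest log2 fold change, -0.73, at 236 and 142 FPKM in the authors' deposited table (q = 0.46).

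**Figure D5:**
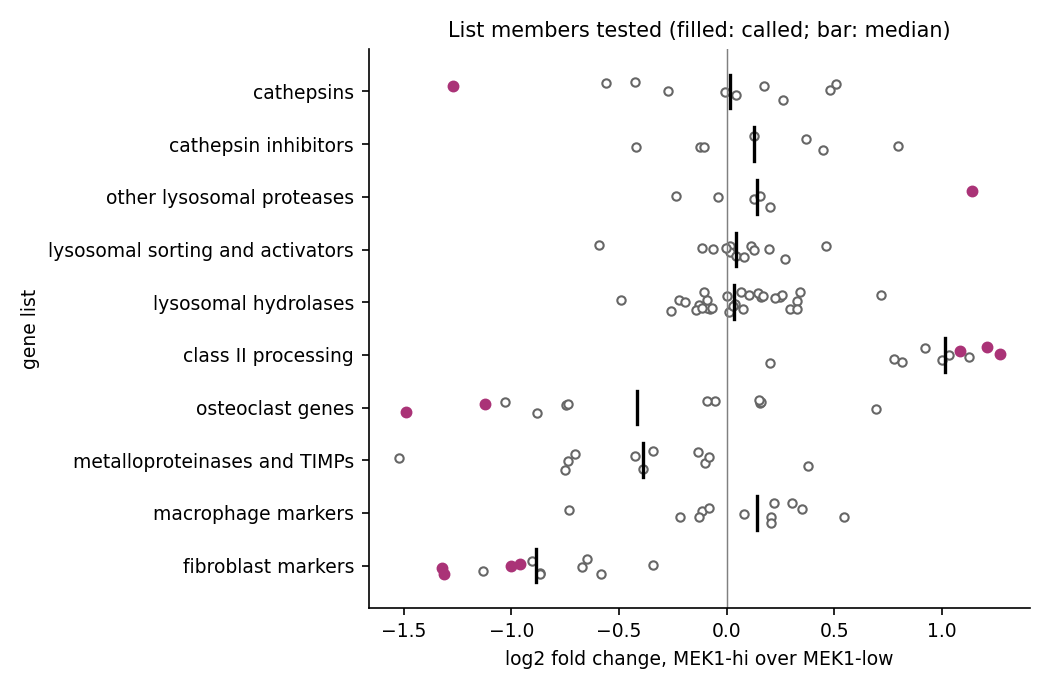
Log2 fold change (MEK1-hi over MEK1-low) of each list's genes among the 11110, with filled points for genes called at a q of 0.05 and a bar at the median. The joint Serpina3f and Serpina3g row is not drawn. The cathepsins centre on 0.02 with Ctsk apart at -1.27, and the fibroblast markers all lie below 0.

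Markers of other cells that make cathepsins were scarce. Of 8 tested dendritic cell markers, 2 were called higher and 0 lower by Cuffdiff, with 3 higher and 1 lower by the unadjusted p at 0.05 and a median log2 fold change of 0.62. Their summed FPKM was 53.6 and 71.2. Clec9a, a marker of cross-presenting dendritic cells, rose from 0.931 FPKM to 5.58 in the authors' deposited table (statistic 4.16, q = 0.00676). Xcr1, a chemokine receptor gene of the same cells, rose from 1.53 FPKM to 4.17 there (statistic 2.62, q = 0.0163). Cd209a, the 1 dendritic cell marker below 0, measured 9.68 against 4.64 FPKM there (q = 0.274). T and NK cell markers had 1 of 8 called higher, Klrk1, and 0 lower, with 4 higher and 1 lower by the unadjusted p at 0.05 and a median log2 fold change of 1.16. Their sums were 42.9 and 60.7 FPKM, of which Cd4, the 1 that was lower, held 27.8 and 19.3 in the authors' deposited table (q = 0.769). Neutrophil, endothelial and B cell markers had 0 called of 3, 4 and 1 tested, with sums of 55.0 and 63.2, 9.62 and 10.4, and 8.57 and 9.59 FPKM. Of these 3 lists, 1 neutrophil marker was higher by the unadjusted p at 0.05, and 0 markers were lower. Of 6 mast cell markers only Kit was tested, which was called higher, and Cpa3 (0.149 and 0.0239 FPKM) and Fcer1a (0.0284 and 0) were near or at 0 in the authors' deposited table. The part of these cells in the cathepsin values was not tested.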

How the data were processed

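RNA of tumor macrophages was sequenced (2 MEK1-low and 3 MEK1-hi libraries). By the labels' protocols, 750 ng of RNA with an integrity number above 8.0 went into stranded mRNA libraries, read as 100-base pairs to a planned depth per sample. The submitters' processing notes name FastQC 0.73, TopHat, Cufflinks, Cuffdiff and mm10, with no role or order. The authors deposited 1 Cuffdiff table with a pooled FPKM per group, a test statistic (a score), a p-value and a q-value per row. Adjusting the deposited p by Benjamini-Hochberg over the tested rows gave the same q values within rounding.

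Log2 fold changes were computed from the deposited FPKM without a pseudocount, since 515 cells of the deposited column held error text. Genes were called with the authors' Cuffdiff q at 0.05. The table holds no counts and no values per library, so no model was fitted. The 2 rows marked as too much data and the 2 marked as failed were left out of sums.

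The cathepsins, 18 other gene lists (201 distinct symbols with the cathepsins, 199 found) and the motifs were chosen with earlier results of these data known. Named genes were all members, up to 4 called genes of each list by absolute statistic (or, with none, the 2 most abundant), and the 3 genes closest to Ctsk over the log2 FPKM of both groups. Some uncalled genes that this rule gives are covered by their list's counts alone, and 1 is not reported here. Others were named after their values were seen: Lgmn, Cst3, Cstb, Cd74, Glb1, Neu1, Arnt, BC028528, Tfec, Ctsw, Ctsll3, Acp5, Nfatc1, Calcr, Ckb, Postn, Cd209a, Mrc1, Cpa3, Fcer1a, Elane, Ctsg, Cd4, the genes overlapping members, and Psmb8. Loci are the authors' on mm10, written 1-based. Promoters are RefSeq's on GRCm38.p6, and transcripts are from GENCODE M21 (GRCm38). The code for the adjustments was run on simulated normal scores. These lack the floor of the deposited p at 5e-05, so that run does not bear on the deposited p values. Work used Python 3.11.15 with scipy 1.17.1, pandas 2.3.3, matplotlib 3.10.9 and numpy 2.4.6.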

Additional observations from a re-analysis of the deposited data

How the results depend on the processing

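The Ctsk call was kept at q thresholds of 0.01 and 0.1, with a 2-fold minimum and with an FPKM filter (a q of 0.00631). It was lost, leaving 0 cathepsins called lower, with the Benjamini-Yekutieli adjustment and with normal p values from the statistic. Even the smallest deposited p cannot pass the former, and the latter does not use the deposited p. Over all genes, 163 calls became 91 at a q of 0.01, 15 with normal p values and 0 with Benjamini-Yekutieli, beside 749 rows at an unadjusted p under 0.05 in Cuffdiff. Cathepsins called higher numbered 0 under each of these settings. The ratio of summed cathepsin FPKM went from 1.14 to 0.979 without Ctss, the most abundant member. Of 40 recomputed log2 fold changes of members, 2 moved by at least 0.15, both with a pseudocount of 10: Ctsk to -1.04 and Ctsf to -0.28. The sign changed for 2 values near 0, those of Ctsa and Ctsb. Of 54 recomputed list medians, 4 moved by at least 0.15 (osteoclast genes under 2 settings, T and NK cell and mast cell markers) and 7 changed sign, all between -0.11 and 0.13 before and after. No paired analysis was possible because the table holds 1 pooled value per group, and leaving out a library could not be run for the same reason. Depth per library is unknown, so no interval is given.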

Other observations

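The 3 genes whose FPKM in both groups lay nearest to those of Ctsk (Euclidean distance over the log2 FPKM of the 2 groups, among 11110 genes) were Snora31, Col5a2 and Nt5dc2, at distances of 0.21, 0.33 and 0.35. Col5a2, a fibrillar collagen gene, measured 61.0 against 34.7 FPKM in the authors' deposited table and did not pass (statistic -1.87, q = 0.192). Snora31, a small nucleolar RNA gene, measured 81.0 against 34.1 FPKM there with a q of 0.9998. Nt5dc2 measured 61.1 against 35.7 FPKM in the authors' deposited table with a q of 0.9998. None of these 3 was called. Snora31 had nearly the same fold change as Ctsk, with a statistic of -2.63. Its RNA is not an mRNA and the libraries were made for mRNA, so it is a weak comparison for Ctsk.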
